A study of Drosophila melanogaster with 9 samples.

Results

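The genes described here encode 10 proteins of cytoplasmic RNA granules that are found in the progenitor cells of the adult fly intestine. They were chosen by name, as the rows lin-28, Imp, Fmr1, loqs, Rox8, Atx2, tral, me31B, Patr-1 and Ge-1 of the deposited count tables, and all 10 of 10 were present among the 17806 named genes of each table. The series concerns the role of Swm, an RNA-binding protein, in intestinal progenitors. RNA-seq was made from GFP-positive intestinal progenitors sorted from the guts of adult female Drosophila melanogaster, with 100 flies and 30000 to 50000 cells per replicate. The 3 control libraries were titled esgTS with a wild-type genotype, and 3 libraries carried the genotype label swm RNAi, a knockdown of swm by RNA interference. The promoter that drives the knockdown and the age of the flies are not in the labels. CLIP-seq was made from whole dissected wild-type intestines, which hold all gut cell types, as 1 library of total lysate (input) and 2 immunoprecipitates on magnetic beads that the protocol calls SWM-coated (Swm IP).

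RNA granules are assemblies of messenger RNA and protein in which translation is held back. P-bodies concentrate the decapping and decay machinery and its translational repressors, and stress granules hold stalled initiation complexes with proteins such as the TIA-1 and ataxin-2 families. In the fly midgut, progenitor cells are known to contain such granules. lin-28 encodes a cold-shock domain protein that binds RNA and is known in the gut for promoting stem cell division. Imp encodes the fly IGF2 mRNA-binding protein, Fmr1 the homologue of the fragile X protein, and loqs the double-stranded RNA-binding partner of Dicer. Rox8 encodes the TIA-1 homologue and Atx2 the ataxin-2 homologue. Among the P-body proteins, me31B encodes a DEAD-box helicase, tral an LSm-domain partner of it, Patr-1 a bridge between the helicase and decapping factors, and Ge-1 a scaffold of the decapping complex.

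The RNA-seq libraries held 14627251 to 19962224 counts, and the CLIP-seq libraries 4615623 (input), 2451369 (IP replicate 1) and 8497190 (IP replicate 2). Levels are given as CPM, read counts relative to the TMM-scaled size of each library. The sort could be checked by its markers: esg, the transcription factor gene that defines gut progenitors, had 1399 to 1726 CPM in the controls and 33.2 CPM in the input. A list of 8 progenitor markers took 0.429% to 0.609% of control counts against 0.0313% of input counts, while 9 enterocyte markers took 0.149% to 0.206% against 5.82%. Enteroendocrine markers took 0.000819% to 0.0037% against 0.0207%, and germline and ovary markers 0.000534% to 0.00155% against 0.00661%. Visceral muscle markers lay on both sides of the input, at 0.185% to 0.842% against 0.558%. Neuronal markers lay above it, at 0.00191% to 0.00506% against 0.00165%. In the controls these came mostly from Msp300 and elav. Without Msp300 the 7 other muscle markers summed to 349 to 486 counts per control library, against 8002 input counts. Without elav the 5 other neuronal markers summed to 93 to 127 counts, against 75 input counts. Relative to library size, both of these sums were lower in the controls than in the input. The knockdown was not visible in the swm transcript itself, where controls 1, 2 and 3 read 159, 116 and 157 CPM, against 159, 137 and 135 CPM in the swm RNAi-labelled libraries (log2 fold change -0.0036, 95% interval -0.39 to 0.38, edgeR adjusted p = 0.998). Directions below are therefore those of the swm RNAi-labelled libraries, in which genetic background and knockdown cannot be told apart. In bulk samples, fewer cells of a type and less RNA per cell cannot be told apart.

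All 10 genes are protein coding, and their positions in the authors' table and in the BDGP6 annotation were the same. They ranged from compact to long. me31B spans 2832 bases of chromosome 2L (10239341 to 10242172, plus strand) and lin-28 spans 2704 bases of 3L (5654681 to 5657384, plus strand); their longest annotated 3′ UTRs were 124 and 265 bases. Imp spans 36409 bases of X (10787869 to 10824277, minus strand), with 12 annotated transcripts and a longest 3′ UTR of 9200 bases. The others were Fmr1 (3R, 10101420 to 10110121), Rox8 (3R, 24043056 to 24048265), Atx2 (3R, 15408423 to 15417277), Patr-1 (3R, 17043564 to 17048421), tral (3L, 12515059 to 12520954), loqs (2L, 13382652 to 13385671) and Ge-1 (2L, 11095150 to 11100888). The median of the longest 3′ UTRs was 1100 bases over the 10 genes and 295 bases over the coding genes tested. Exons of Rox8 and of the opposite-strand gene CG5986 overlap by 384 bases, and CG5986 had 245 to 553 counts per RNA-seq library. Exons of loqs and of the opposite-strand asRNA:CR44599 overlap by 420 bases. That RNA had 2, 12 and 2 counts in swm RNAi replicates 1, 2 and 3 and 0 counts in the other libraries. The use of strand in counting is not given in the sources used here, so reads of either stretch cannot be assigned to one gene of the pair. The lncRNA:CR45204, which lies inside Imp on the same strand, had 0 counts in all 9 libraries. Its overlap with Imp is exonic over 1955 bases, and how reads shared by overlapping genes were counted is not given in the sources used here. The 0 counts therefore cannot show whether it was expressed, or whether Imp lost reads there.

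All 10 genes were expressed in control progenitors, and the P-body genes tral and me31B stood at the top when the level was divided by exonic length. In CPM per kb, the control means were 72.3 ± 21.0 for tral, 64.5 ± 6.27 for me31B, 49.0 ± 20.1 for Atx2, 41.2 ± 10.8 for lin-28 and 38.8 ± 14.6 for Rox8 (SD, n = 3). Then came Ge-1 at 26.4 ± 6.26, Fmr1 at 26.4 ± 12.7, Patr-1 at 25.1 ± 4.53, Imp at 16.7 ± 15.6 and loqs at 10.9 ± 2.69 CPM per kb (SD, n = 3). In the controls the ranges of each gene and of its neighbour in this order overlapped, so no single step was larger than the spread between replicates. In the swm RNAi-labelled libraries the spread was smaller for 9 of the 10, all but lin-28: tral (76.7 to 86.3 CPM per kb), me31B (59.4 to 70.6), Atx2 (51.9 to 56.8) and Rox8 (40.8 to 44.2) did not overlap with each other there. For comparison, esg had 687 ± 72.0 CPM per kb in the controls (SD, n = 3).

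lin-28 differed from the other 9 genes in how far apart sorted progenitors and whole intestine stood. It had 58.9, 49.2 and 34.2 CPM in control replicates 1, 2 and 3, at the 71.3rd, 69.0th and 59.6th percentile of the genes tested. In the input it had 7 counts, which is 1.73 CPM and the 11.1th percentile; the exact 95% binomial interval of its share was 0.610 to 3.12 CPM without scaling. The 2 count tables were counted over different gene lengths and scaled separately, so these levels are set side by side with no test. lin-28 was the 1 gene of the 10 with every control at least 2-fold above the input, a margin that 19.0% of the 6993 genes tested in both tables had. None of the 10 was at least 2-fold below the input in every control, against 16.7% of genes. me31B, for example, had 109 to 131 CPM in the controls against 90.5 CPM, and loqs 18.1 to 29.7 CPM and 11.1 CPM. For Imp the 3 controls lay on both sides of the input, at 36.0 to 458 CPM against 184 CPM.

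**Figure D1:**
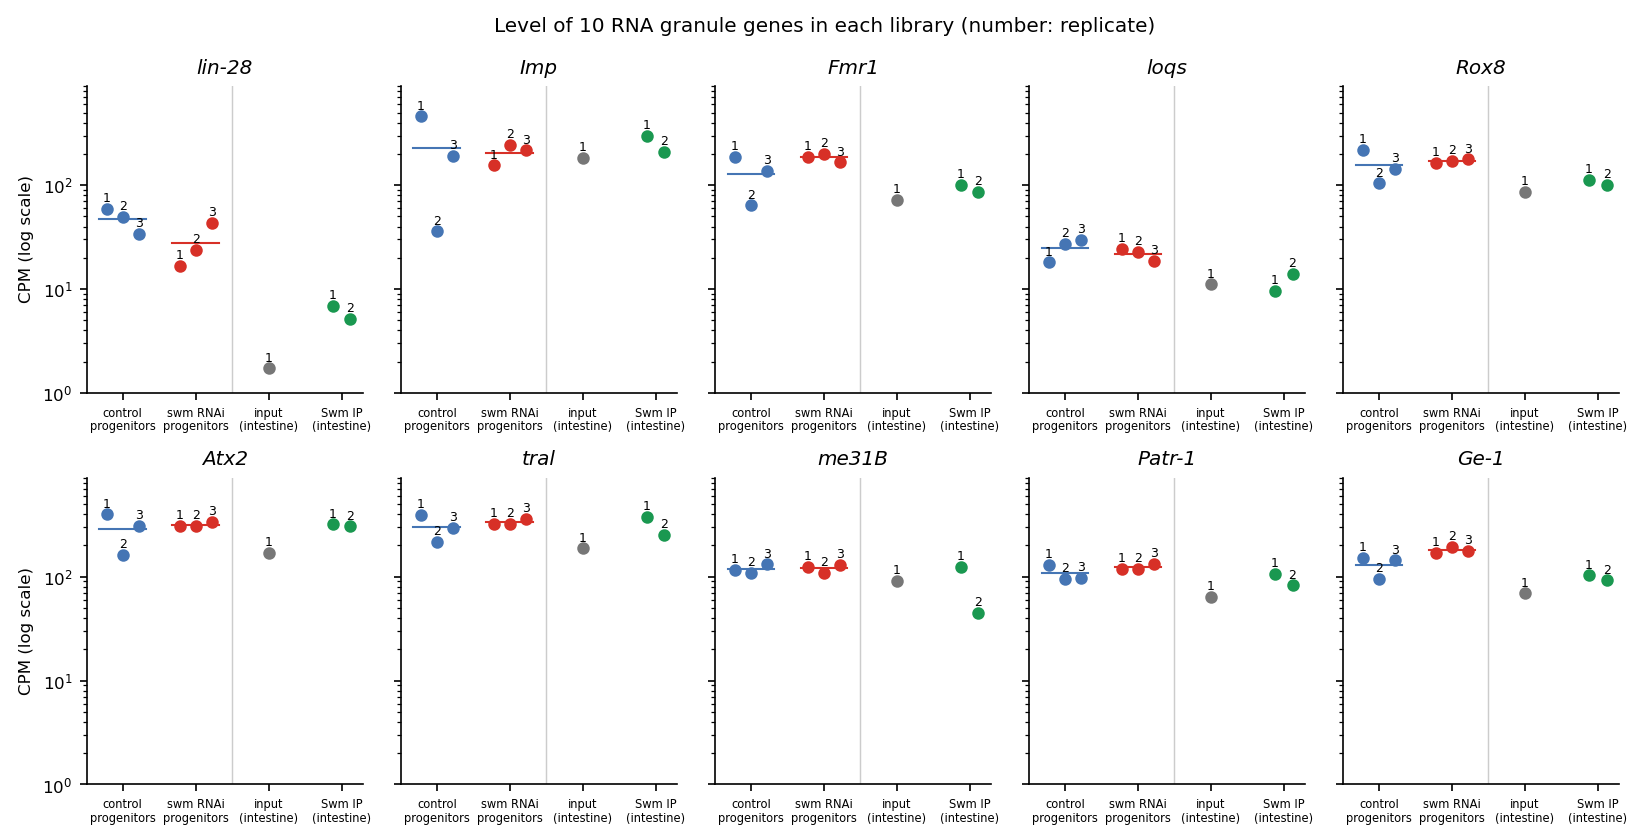
CPM on a log axis of each of the 10 genes in the 3 control and 3 swm RNAi progenitor libraries and in the input and 2 Swm IP libraries of whole intestine; points are libraries with their replicate number and bars are means of 3. lin-28 lay at 34.2 to 58.9 CPM in the controls and at 1.73 CPM in the input, and control replicate 2 was the lowest control for Imp at 36.0 CPM.

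The swm RNAi-labelled libraries were then compared with the controls. None of the 10 genes passed the test (edgeR quasi-likelihood, adjusted p below 0.05), where 3.17% of 8899 genes did (2.34% higher and 0.832% lower). With DESeq2 the count was also 0, and lin-28 and Ge-1 had an unadjusted p below 0.05 by both tools, as had 12.4% of all genes with edgeR. The median log2 fold change of the 10 genes was 0.13, against 0.033 over all genes. What each gene showed is given by role.

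Among the RNA-binding regulators, lin-28 was the gene with the lowest fold change. In the swm RNAi-labelled libraries it had 16.8, 23.9 and 43.2 CPM in replicates 1, 2 and 3, against 58.9, 49.2 and 34.2 CPM in the controls. Replicates 1 and 2 lay below every control, and replicate 3 lay within their range, so the groups overlapped. That is -0.76 on the log2 scale (SE 0.34), with a 95% interval of -1.52 to -0.0052 (edgeR adjusted p = 0.395). Over 13 alternative settings the value ran from -1.21 to -0.51 with adjusted p from 0.0280 to 0.794. The 1 setting that passed was the fit without a filter on low counts (adjusted p = 0.0280), and the value of -1.21 came without swm RNAi replicate 3 (adjusted p = 0.0878). The authors' deposited table gives lin-28 a log2 fold change of -0.80 and an adjusted p of 0.258.

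Imp, whose protein binds and stabilises mRNAs, was the most variable of the 10 genes. Controls 1, 2 and 3 read 458, 36.0 and 191 CPM, against 155, 244 and 216 CPM in the swm RNAi-labelled libraries. Control replicate 2 was the lowest of all 6 libraries and control replicate 1 the highest, with the other 4 libraries between them. The log2 fold change of -0.15 (SE 0.87) had a 95% interval of -2.37 to 2.06 (edgeR adjusted p = 0.975). Without control replicate 2 it was -0.67 (adjusted p = 0.387), and without control replicate 1 it was 0.85 (adjusted p = 0.702).

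Fmr1, a translational repressor, had 188, 64.1 and 136 CPM in the controls and 189, 199 and 166 CPM in the swm RNAi-labelled libraries. The groups overlapped through control replicate 1, and the log2 fold change was 0.51 (SE 0.33, edgeR adjusted p = 0.654). Without control replicate 2 it was 0.18 (adjusted p = 0.695), and without control replicate 1 it was 0.87 (adjusted p = 0.154). loqs, which acts in small RNA processing, had the lowest level per length of the 10, at 18.1, 27.4 and 29.7 CPM in the controls and 24.2, 22.9 and 18.7 CPM in the swm RNAi-labelled libraries. The difference was -0.19 on the log2 scale (SE 0.25), with a 95% interval of -0.75 to 0.36 (edgeR adjusted p = 0.873). Leaving out control replicate 1 gave -0.40, and leaving out replicate 3 gave -0.051 for the control and -0.089 for the swm RNAi-labelled library.

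The stress granule genes stood close to 0. Rox8 had 219, 104 and 144 CPM in the controls and 164, 170 and 177 CPM in the swm RNAi-labelled libraries, a log2 fold change of 0.13 (SE 0.24, edgeR adjusted p = 0.921). Atx2 had 398, 163 and 308 CPM and then 307, 307 and 336 CPM, a log2 fold change of 0.13 (SE 0.28, edgeR adjusted p = 0.933). In both genes the swm RNAi-labelled libraries lay between the lowest and the highest control. Without control replicate 2 both values turned in sign, to -0.099 for Rox8 and -0.17 for Atx2, and without control replicate 1 they were 0.45 and 0.42.

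The P-body genes held the narrowest interval and the 1 gene whose groups did not overlap. me31B, the helicase gene, had 117, 109 and 131 CPM in the controls and 124, 110 and 130 CPM in the swm RNAi-labelled libraries. Its log2 fold change of 0.026 (SE 0.16) had a 95% interval of -0.32 to 0.37 (edgeR adjusted p = 0.975), and its sign changed with other scalings of the libraries, as did none of the other 9 genes. tral had 391, 216 and 297 CPM in the controls and 320, 325 and 360 CPM in the swm RNAi-labelled libraries (log2 fold change 0.15, SE 0.22, edgeR adjusted p = 0.890; -0.047 without control replicate 2 and 0.37 without control replicate 1). Patr-1 had 130, 95.7 and 96.9 CPM in the controls and 119, 120 and 132 CPM in the swm RNAi-labelled libraries (log2 fold change 0.20, SE 0.17, edgeR adjusted p = 0.761). Leaving out controls 1, 2 and 3 in turn gave 0.34, 0.12 and 0.13 for Patr-1.

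Ge-1, the decapping scaffold gene, had 152, 95.0 and 144 CPM in the controls and 169, 195 and 177 CPM in the swm RNAi-labelled libraries. Every library labelled swm RNAi lay above every control, which was true of 12.3% of all genes and of 1 of the 10. This is a log2 difference of 0.47 (SE 0.19), with a 95% interval of 0.038 to 0.90 and an edgeR adjusted p of 0.330. Without control replicate 2 it was 0.27 (adjusted p = 0.417). None of the 10 had every library labelled swm RNAi below every control, against 7.94% of genes. The authors' deposited table gives Ge-1 a log2 fold change of 0.44 and an adjusted p of 0.374.

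**Figure D2:**
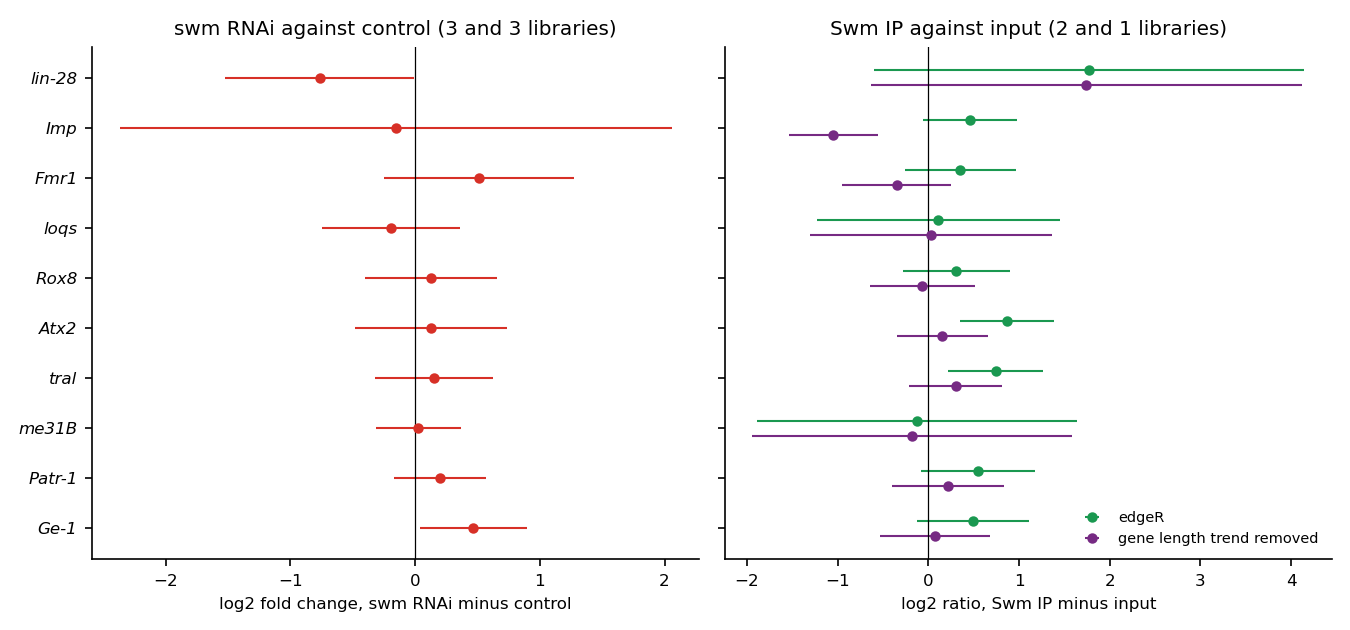
Log2 fold change with its 95% interval (points and bars) for the 10 genes, with swm RNAi against control at left and Swm IP against input at right, where the second colour shows the fit with the gene length trend removed. The RNAi intervals of lin-28 and Ge-1 stopped at -0.0052 and 0.038, and Imp moved from 0.46 to -1.05 in the IP when the length trend was removed.

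The replicate spread of these genes came mostly from the controls. For 9 of the 10, all but lin-28, the range over the controls was wider than the range over the swm RNAi-labelled libraries, as it was for 74.6% of all genes. Control replicate 2 was the lowest control for 8 of the 10 (all but lin-28 and loqs), where it was lowest for 28.8% of all genes. Relative to the mean of control replicates 1 and 3, it stood at -3.04 on the log2 scale for Imp, -1.32 for Fmr1, -1.11 for Atx2 and -0.77 for Rox8. For lin-28 and loqs it stood at 0.13 and 0.24.

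In medians over many genes, the size of this gap followed the length of the annotated 3′ UTR. It did not do so gene by gene among the 10. Ge-1 stood at -0.64 with 538 bases, tral at -0.66 with 1803 bases and Patr-1 at -0.23 with 1292 bases. Over coding genes, the median of control replicate 2 against the other controls was 0.18 for 3′ UTRs under 100 bases (1480 genes), 0.048 from 400 to 800 bases (1400 genes) and -0.50 from 1600 bases on (748 genes). Control replicate 1 had the opposite trend, with medians of -0.11 under 100 bases and 0.52 from 1600 bases on. Imp, Fmr1, tral and Atx2 are the 4 of the 10 genes in that last class, and Imp and Fmr1 were at least 2-fold below both other controls. Over all genes that held for 4.02% (5.33% for control replicate 1 and 11.6% for control replicate 3), and in the class from 1600 bases on for 15.2%. The same library was low in Msp300, which is on the visceral muscle list, at 35459 counts against 165179 and 112866 in control replicates 1 and 3. Summed, the 8 muscle markers took 0.185% of counts in control replicate 2, against 0.842% and 0.568%, and all 8 were detected there, whereas Act57B and Act87E were at 0 in both other controls and Mlc1 and Mlc2 in control replicate 3. The 7 muscle markers other than Msp300 summed to 427 counts there, against 349 and 486 counts. Likewise the 6 neuronal markers took 0.00191% of counts there, against 0.00506% and 0.00463%, mostly from elav, and the 5 others summed to 117 counts against 93 and 127. The part of the library and of these markers in the spread of the 10 genes was not tested.

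**Figure D3:**
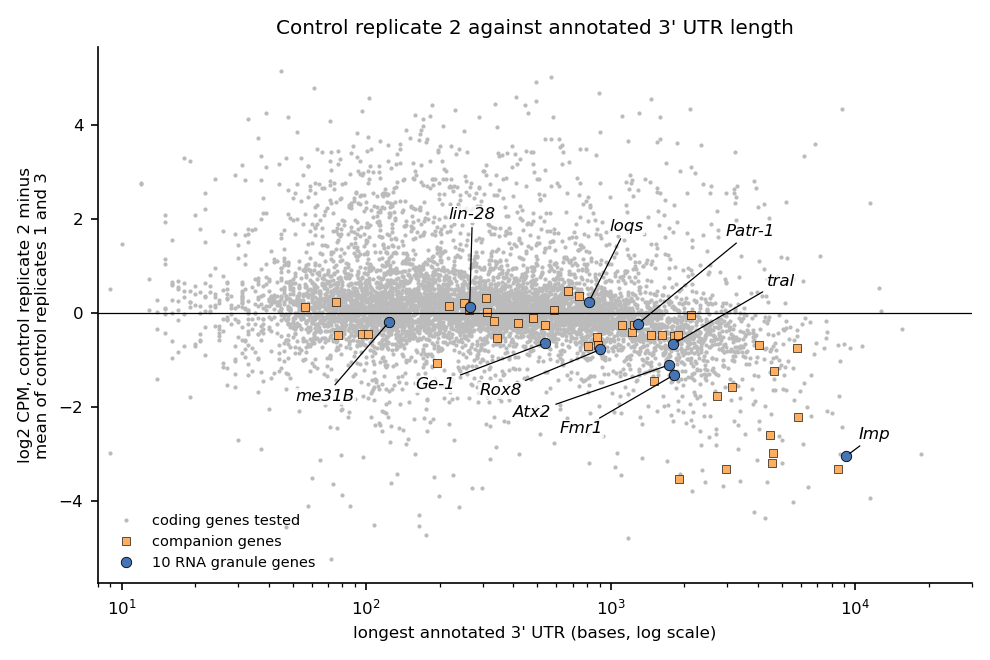
Log2 CPM of control replicate 2 minus the mean of control replicates 1 and 3, against the longest annotated 3′ UTR on a log axis, for coding genes tested, companion genes and the 10 RNA granule genes. Imp lay at -3.04 with a 3′ UTR of 9200 bases and lin-28 at 0.13 with 265 bases.

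Several of the 10 genes moved together over the 6 RNA-seq libraries. Pearson's r of log2 CPM was 0.98 between Imp and Atx2, 0.99 between Rox8 and tral and 0.90 between Imp and Fmr1 (n = 6 libraries, which share depth and scaling). Without control replicate 2 these were 0.90, 0.96 and 0.31 (n = 5), so that of these pairs Imp and Fmr1 alone lost their likeness. Other genes did not share this. lin-28 was at -0.018 with Imp and -0.021 with tral over 6 libraries, but at 0.78 and 0.69 without control replicate 2. loqs was negative with every other gene of the 10 over 6 libraries, from -0.94 with Patr-1 to -0.033 with me31B. Without control replicate 2 these were -0.96 and 0.28. me31B reached at most 0.50, with Atx2, over 6 libraries. The genes most like lin-28 among 6676 ranked by this measure over the 6 libraries were EDTP (r = 0.98), CG17270 (0.98) and Rab2 (0.98). These are the top values of a long ranking over few libraries, and whether they exceed chance was not tested. EDTP had 166 to 206 CPM in the controls and 109 to 169 CPM in the swm RNAi-labelled libraries, with no call (log2 fold change -0.41, edgeR adjusted p = 0.410).

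The Swm IP was compared with the input, the design by which the study looked for RNA bound by Swm. Atx2 and tral were higher in the IP, and the other 8 did not pass the test (edgeR quasi-likelihood, adjusted p below 0.05). Over all 8375 genes 9.25% were called higher, and 8.97% lower. The fit has 1 input, whose spread was taken to be that of the 2 IP libraries, and a mock IP was not analysed here. Cell type markers differed between these libraries too. The 8 visceral muscle markers, all detected, took 0.558% of input counts and 2.18% and 2.79% of counts in IP replicates 1 and 2. Without Msp300 the 7 others summed to 8002 of the 4615623 input counts. They summed to 7167 of 2451369 counts in IP replicate 1 and 104920 of 8497190 in IP replicate 2. Relative to library size, this sum thus rose in both IP libraries, and more so in IP replicate 2. Mhc, bt and sls rose in both. In IP replicate 1, Mlc2 (1044 counts of input and 242 of IP), Mlc1 (346 and 123) and Act57B (1106 and 470) fell. The progenitor markers went from 0.0313% to 0.0595% and 0.0645%, and the enterocyte markers from 5.82% to 4.11% and 4.31%. Of the progenitor markers, hdc held the largest part of the rise, with 479 counts of input and 767 and 2579 of IP. Dl, N and klu also rose, and E(spl)mbeta-HLH (52 counts of input, 23 and 87 of IP) fell relative to library size. The part of these cell type markers in the IP ratios of the 10 genes was not tested.

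The CLIP-seq counts cover the whole gene span, and the IP ratio rose with that length: the trend stood at 0.030 (log2) at the length of lin-28, 0.44 at that of tral, 0.71 at that of Atx2 and 1.51 at that of Imp. The median span was 5474.5 bases over the 10 genes and 3158 bases over the genes tested.

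Atx2 had an input level of 170 CPM, and IP replicates 1 and 2 reached 319 and 305 CPM. Both IP libraries lay above the input and close to each other. Its log2 ratio was 0.87 (SE 0.26, edgeR adjusted p = 0.0102), and 0.16 (adjusted p = 0.816) with the length trend removed. The authors' deposited table gives Atx2 a log2 ratio of 0.91 and an adjusted p of 0.0381. tral had an input level of 187 CPM and IP levels of 375 and 252 CPM, a log2 ratio of 0.74 (SE 0.26, edgeR adjusted p = 0.0349). With the length trend removed it was 0.30 (adjusted p = 0.576). The call on tral was also lost with DESeq2 (adjusted p = 0.118), without a filter on low counts (0.0505) and with the robust option off (0.0951). In the authors' deposited table tral has an adjusted p of 0.140.

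Imp, the longest of the genes, had an input level of 184 CPM and IP levels of 298 and 209 CPM. The log2 ratio was 0.46 (SE 0.26, edgeR adjusted p = 0.234). With the length trend removed it turned to -1.05 (SE 0.25, adjusted p = 0.00105) and was called lower, where 10.4% of genes were called lower and 1.17% higher. Imp lay above the input and below the trend of genes of its length.

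lin-28 had the highest ratio of the 10 and the fewest counts. Its 7 input counts compare with 18 and 47 counts in IP replicates 1 and 2, or 1.73 CPM against 6.92 and 5.16 CPM. The exact 95% intervals of its share were 4.35 to 11.6 and 4.06 to 7.36 CPM without scaling in the IP libraries, both above the 0.610 to 3.12 of the input; they cover counting error only. Of the 10, lin-28 alone reached a 2-fold rise in IP replicates 1 and 2 alike, as did 11.6% of all genes. The edgeR log2 ratio was 1.77 (SE 1.20, 95% interval -0.60 to 4.15, adjusted p = 0.341). It was 1.74 with the length trend removed, and the gene was not among those tested when the minimum count was 50.

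In me31B the 2 IP libraries fell on opposite sides of the input. The input stood at 90.5 CPM, with 124 CPM for IP replicate 1 and 44.8 CPM for IP replicate 2 (log2 ratio -0.13, SE 0.66, edgeR adjusted p = 0.928). loqs, with 45 input counts, also had IP libraries on both sides, at 9.61 and 14.1 CPM against 11.1 CPM (log2 ratio 0.11, SE 0.68, edgeR adjusted p = 0.938). The 8 others had both IP libraries above the input, which held for 40.0% of all genes.

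Patr-1 went from 63.8 CPM to 106 and 82.3 CPM (log2 ratio 0.55, SE 0.32, edgeR adjusted p = 0.244). Ge-1 went from 69.0 CPM to 103 and 92.4 CPM (log2 ratio 0.50, SE 0.31, edgeR adjusted p = 0.295). Fmr1 went from 72.7 CPM to 99.9 and 86.5 CPM, and Rox8 from 85.6 CPM to 112 and 100.2 CPM. Their log2 ratios were 0.35 (SE 0.31) and 0.31 (SE 0.30), with edgeR adjusted p of 0.485 and 0.536. With the length trend removed Fmr1 and Rox8 turned to -0.35 and -0.064, and the median of the 10 genes went from 0.48 to 0.048. Over all genes the median went from 0.0041 to -0.23.

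**Figure D4:**
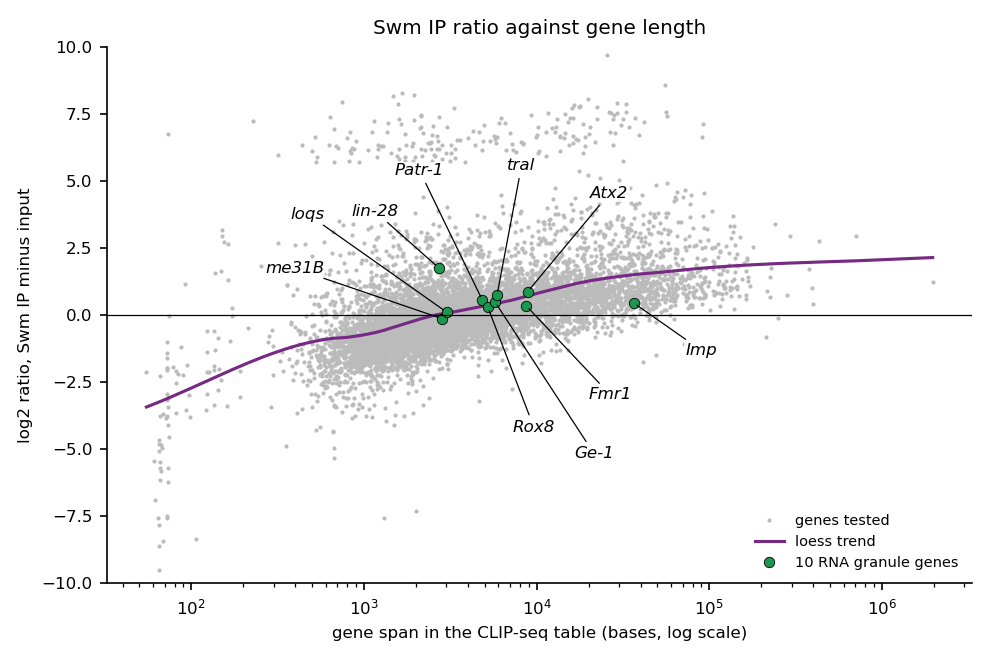
Log2 ratio of Swm IP to input against gene span on a log axis, for all genes tested, with the loess trend (line) and the 10 RNA granule genes. Imp lay below the trend, at 0.46 against 1.51, and lin-28 above it, at 1.77 against 0.030.

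A further 47 companion genes were read from the same fits. They are genes of the same processes and 6 transcripts reported elsewhere as targets of Lin-28, Imp or Fmr1. Those 6 are included in the totals given here and are described under the other observations. In RNA-seq 44 were tested and none was called (edgeR quasi-likelihood), where 3.17% of all genes were, and DESeq2 called none. By edgeR 1 had an unadjusted p below 0.05, as had 12.4% of all genes. That 1 was Upf1, the nonsense-mediated decay helicase, at a log2 fold change of -0.36 (edgeR adjusted p = 0.331). Without control replicate 1 stau, a double-stranded RNA-binding transport factor, was called higher (0.64, adjusted p = 0.0496). The most abundant of each list also had no call: AGO1 (0.17) and gw (-0.064) of the miRNA pathway, the poly(A)-binding protein gene pAbp (0.37) and the helicase gene eIF4A (-0.072), AGO2 (0.26) and Dcr-2 (0.30) of the siRNA pathway, and Syp (0.21) and vig (0.23). Control replicate 2 was at least 2-fold below both other controls for 10 of the 44, against 2 of the 10 granule genes. That held for 4.02% of all genes and for 15.2% of those with a 3′ UTR of at least 1600 bases. All of the 10 companions but vig (1503 bases) had a 3′ UTR of that length. They included rin, the G3BP homologue of stress granules, at 81.3 CPM against 1027 and 641 CPM. AGO1 was at 74.4 against 846 and 551 CPM.

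In the IP 42 companions were tested, of which 11 were higher and 1 lower, where 9.25% and 8.97% of all genes were. The decapping enzyme gene DCP2 (129 CPM of input, 294 and 223 CPM of IP) had a log2 ratio of 0.99 (SE 0.27), and AGO1 one of 0.74 (SE 0.27). Of the stress granule genes, Capr, the caprin homologue, rose by 0.98 (SE 0.27) and rin by 0.82 (SE 0.26), while pAbp (0.90, SE 0.34, edgeR adjusted p = 0.0501) and eIF4A (0.077) did not pass. Dcr-1, the miRNA-processing partner of loqs, rose by 1.15 (SE 0.35), from 39.3 to 103 and 72.7 CPM. AGO2 (-0.17) and Dcr-2 (0.44) were not called, and gw stood at -0.053. Among mRNP partners tyf, which acts with Atx2 in translation of the clock gene per, rose by 1.37 (SE 0.28), stau by 1.39 (SE 0.29), shep by 1.00 (SE 0.29) and Syp by 0.74 (SE 0.27), and vig2 fell by 0.76 (SE 0.27). The edgeR adjusted p of the 10 named here as rising or falling ran from 5.77e-05 for tyf to 0.0387 for Syp. Calls were also gained: pAbp passed with RLE size factors, library sizes alone, DESeq2 and no filter on low counts. AGO1, rin and Syp lost their call with the robust option off, AGO1 and Dcr-1 with DESeq2, AGO1 and Syp without a filter on low counts, and vig2 with DESeq2, with library sizes alone and with the robust option off. With the length trend removed none was higher and 9 of the 42 were lower, shep (-0.81) and Syp (-0.87) among them, where 1.17% of all genes were higher and 10.4% lower. vig and LSm3 had 0 counts in all 3 CLIP-seq libraries, the input included, though their RNA-seq counts summed to 49197 and 1339. cup had 0 counts in all 9 libraries. The cause of these 0 counts was not tested, and they are not read as absence of the transcripts.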

How the data were processed

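RNA-seq was measured in sorted progenitors (3 control and 3 swm RNAi libraries) and CLIP-seq in whole intestines (1 input and 2 Swm IP libraries), from rRNA-depleted libraries. Gene counts were deposited unnormalised, per the file headers. Tools in the submitters' processing notes were DESeq2, featureCounts, Subread 2.0.0, SAMtools 1.10, STAR 2.7.3a and cutadapt 2.9; the genome build, the annotation and the strand setting are not given in the sources used here. The deposited lengths are exonic for RNA-seq but span the whole gene for CLIP-seq, whose counts may thus hold intronic reads. The authors' deposited tables of comparisons give log2 fold changes and adjusted p-values; 9 per-sample columns in them were not used. Gene starts given there were those of BDGP6 for 99.9% of genes. From each file of counts 1 unnamed row was left out, with at most 5 counts in a library.

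Tests used edgeR 4.0.16 under R 4.3.3 on the deposited counts (filterByExpr with a minimum count of 10, TMM scaling, robust quasi-likelihood fit, Benjamini-Hochberg adjustment over all genes tested, threshold 0.05) and, as an alternative, DESeq2 1.42.0. The edgeR fit of each comparison was tested on simulated data. All 10 genes passed the filter in both tables. Standard errors are the log2 fold change over the root of F. CPM uses TMM-scaled library sizes, and percentiles rank the genes tested within a library. The 2-fold rule, the replicate deviations and correlations use log2 CPM with a prior count of 2. The length trend is a loess of log2 ratio on log2 span (span 0.3), put into the offsets. Alternatives were other scalings and filters, the robust option off, a replicate block, each replicate left out and a prior count of 0.5. Companion genes named are those called, up to 6 per list and comparison, the 2 most abundant of each list, and others said to be chosen by what they show, such as Upf1, rin and stau. The 10 genes and the lists were chosen with earlier results of these data known. Separate crosses per replicate are not stated in the labels; p-values cover the spread among these libraries, perhaps a technical one. Protein features were not analysed here. Of the tested genes, 94.1% had their symbol in the annotation.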

Additional observations from a re-analysis of the deposited data

How the results depend on the processing

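Of the 10 genes, me31B in RNA-seq turned in sign with RLE size factors (-0.0032), library sizes alone (-0.036) and DESeq2 (-0.0033). Imp turned with the replicate block (0.40). Leaving out each replicate in turn moved Imp from -0.67 to 0.85, Rox8 from -0.099 to 0.45, Atx2 from -0.17 to 0.42, tral from -0.047 to 0.37 and me31B from -0.045 to 0.11. In the IP, me31B turned with library sizes alone (0.15), and Imp (-1.05), Fmr1 (-0.35) and Rox8 (-0.064) turned with the length trend removed. The cause was not tested.

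The 282 genes called in RNA-seq became 469 with DESeq2, 527 without a filter and 141 to 392 with a replicate left out. Of the 10 genes 1 was called without a filter (lin-28), and 0 or 1 companion with a replicate left out. In the IP 1526 genes were called, 934 with DESeq2 and 971 with the length trend removed; of the 10 genes 2 were called, and 1 with DESeq2, without a filter, with the robust option off and, as Imp, with the length trend removed. Scaling by library sizes alone shifted the all-gene median from 0.0041 to 0.29, and 1114 genes were higher and 417 lower in the IP, against 775 and 751. The 2-fold rule in IP replicates 1 and 2 was met by 972 genes, 1460 with library sizes alone, 441 with the length trend removed, 510 with a minimum count of 50 and 1445 to 1528 with an IP replicate left out. Of the 10 genes this was 1, then 2 with library sizes alone, 0 with a minimum count of 50 and 1 to 2 with an IP replicate left out. With 1 IP library left there are no residual degrees of freedom, so these are values with no test.

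No pairing of the RNA-seq samples by replicate number was seen: the correlations of deviations were -0.063, -0.049 and 0.0040 for numbers 1, 2 and 3. Whether samples of the same number were handled together is not stated in the labels. With the block 287 genes were called, and no call on the 10 genes changed. No paired analysis was possible for the IP because the groups share 1 number only.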

Other observations

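Of 6 transcripts reported elsewhere as targets of Lin-28, Imp or Fmr1, InR, the insulin receptor gene and a known target of Lin-28 in gut stem cells, went from an input level of 232 CPM to 1659 and 519 CPM in IP replicates 1 and 2. Both IP libraries lay above the input but differed from each other, and the log2 ratio of 2.23 (SE 1.33) did not pass (edgeR adjusted p = 0.510; 0.881 with the length trend removed), though it was called higher with the robust option off. The cytoskeletal gene futsch, a target of Fmr1, rose from 3.22 CPM to 16.1 and 24.3 CPM (log2 ratio 2.66, SE 0.73, edgeR adjusted p = 0.00426), and chinmo from 3.71 to at least 16.5 CPM in both IP libraries (2.30, SE 0.74, adjusted p = 0.0165). With the length trend removed neither was called (adjusted p = 0.393 and 0.657). chic (-0.071) and Rac1 (-0.37) were not called. In RNA-seq none of the 5 tested was called by edgeR, where 3.17% of all genes were, or by DESeq2. The most abundant were chic (0.25) and Rac1 (-0.065). InR had 116, 37.3 and 107 CPM in the controls against 60.6, 81.6 and 80.1 CPM in the swm RNAi-labelled libraries.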
